A study of Mus musculus with 50 samples.

Results

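Thapsigargin and interferon gamma (IFN-γ) were set directly against each other after 8 h in differentiating mouse oligodendrocytes. The comparison takes every thapsigargin library and every IFN-γ library labelled 8 h, 5 of each, so 10 of the 50 libraries of the series, with genotype as a covariate. The thapsigargin group holds 2 wild-type and 3 Nrf2 -/- libraries, treated at a concentration labelled 200 µM. The IFN-γ group holds 2 wild-type and 3 Nrf2 -/- libraries, treated with 200 U/ml. The 5 untreated libraries of the same hour, again 2 wild-type and 3 Nrf2 -/-, serve to sort the differences into responses. All cells were oligodendrocyte precursors immunopanned from cortices of C57BL/6 pups aged 6 days, passaged 2 times and left to differentiate for 12 to 14 h before treatment, although a tissue tag names whole brain. The design text gives more Nrf2 -/- replicates than the 3 per group found here. Whether replicates are separate cultures is not labelled; the p-values therefore speak only to variation among these libraries, some of which may be technical. In bulk RNA, fewer cells of a type and less RNA per cell cannot be told apart.

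Thapsigargin blocks the SERCA pumps that fill the endoplasmic reticulum (ER) with calcium. Unfolded protein then activates the sensors PERK, IRE1 and ATF6, which act through the transcription factors ATF4 and CHOP (Ddit3), spliced XBP1 and cleaved ATF6 and induce chaperones, ER-associated degradation and amino acid supply. IFN-γ binds its receptor and acts through the kinases JAK1 and JAK2, then through IRF1, and is known for inducing antigen presentation and cell-autonomous defence GTPases. Both agents are known to harm maturing oligodendrocytes, the cells that make myelin.

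The promoters shown here belong to genes that carry the contrast: Trib3, Chac1, Slc7a11, Derl3 and Hspa5 were far higher with thapsigargin, and Gbp2, Igtp and Irf1 far higher with IFN-γ. Each line runs 5′ to 3′ along the gene's strand, from 250 bases before to 50 after the start in RefSeq (GRCm38.p6). Capitals mark matches to 5 motifs searched on both strands: the amino acid response element TGATGNAA of ATF4 and CHOP, the ER stress element (ERSE), the XBP1-type element (UPRE) ACGTGG, the gamma-activated sequence (GAS) TTCNNNGAA and the interferon-stimulated response element (ISRE). The end of the ERSE overlaps in letters with the UPRE read on the other strand.
Trib3 (chr2:152344011-152344310, minus strand): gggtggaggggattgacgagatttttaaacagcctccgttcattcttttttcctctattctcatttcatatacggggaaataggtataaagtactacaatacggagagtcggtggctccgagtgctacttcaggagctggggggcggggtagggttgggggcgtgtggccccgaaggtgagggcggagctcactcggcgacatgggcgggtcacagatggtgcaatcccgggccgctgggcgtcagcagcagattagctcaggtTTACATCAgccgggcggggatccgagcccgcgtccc
Chac1 (chr2:119350992-119351291, plus strand): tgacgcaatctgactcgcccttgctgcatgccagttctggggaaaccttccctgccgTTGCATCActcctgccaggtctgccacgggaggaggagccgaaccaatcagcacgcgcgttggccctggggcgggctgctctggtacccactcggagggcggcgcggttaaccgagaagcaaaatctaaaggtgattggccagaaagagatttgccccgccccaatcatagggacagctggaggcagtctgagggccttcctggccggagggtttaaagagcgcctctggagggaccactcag
Slc7a11 (chr3:50443564-50443863, minus strand): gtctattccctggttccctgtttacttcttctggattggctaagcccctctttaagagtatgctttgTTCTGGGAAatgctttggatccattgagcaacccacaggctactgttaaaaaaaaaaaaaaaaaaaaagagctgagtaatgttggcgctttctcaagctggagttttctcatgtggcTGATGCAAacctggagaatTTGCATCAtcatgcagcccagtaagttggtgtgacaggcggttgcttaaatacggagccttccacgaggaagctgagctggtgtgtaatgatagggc
Derl3 (chr10:75893148-75893447, plus strand): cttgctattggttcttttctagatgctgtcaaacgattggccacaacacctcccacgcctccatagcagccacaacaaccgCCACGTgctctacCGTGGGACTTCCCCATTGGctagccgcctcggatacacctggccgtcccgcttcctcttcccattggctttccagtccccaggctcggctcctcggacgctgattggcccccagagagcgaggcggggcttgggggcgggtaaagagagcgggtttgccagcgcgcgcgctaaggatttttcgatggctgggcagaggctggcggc
Hspa5 (chr2:34771840-34772139, plus strand): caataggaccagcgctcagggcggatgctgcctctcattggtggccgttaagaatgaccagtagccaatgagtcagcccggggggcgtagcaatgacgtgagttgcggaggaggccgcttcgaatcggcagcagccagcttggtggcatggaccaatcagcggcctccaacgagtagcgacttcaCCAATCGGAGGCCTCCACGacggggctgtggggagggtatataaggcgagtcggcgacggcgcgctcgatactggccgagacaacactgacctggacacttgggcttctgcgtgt
Gbp2 (chr3:142620413-142620712, plus strand): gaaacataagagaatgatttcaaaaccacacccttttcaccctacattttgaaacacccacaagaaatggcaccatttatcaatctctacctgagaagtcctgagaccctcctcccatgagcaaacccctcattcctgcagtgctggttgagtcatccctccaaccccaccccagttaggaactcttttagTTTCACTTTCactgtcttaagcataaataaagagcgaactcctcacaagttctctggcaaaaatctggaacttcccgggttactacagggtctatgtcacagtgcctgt
Igtp (chr11:58199306-58199605, plus strand): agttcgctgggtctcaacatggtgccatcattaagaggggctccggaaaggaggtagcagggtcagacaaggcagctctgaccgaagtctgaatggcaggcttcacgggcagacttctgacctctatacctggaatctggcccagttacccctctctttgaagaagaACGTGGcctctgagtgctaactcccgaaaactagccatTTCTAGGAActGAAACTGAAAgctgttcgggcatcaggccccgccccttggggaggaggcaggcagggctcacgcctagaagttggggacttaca
Irf1 (chr11:53769764-53770063, plus strand): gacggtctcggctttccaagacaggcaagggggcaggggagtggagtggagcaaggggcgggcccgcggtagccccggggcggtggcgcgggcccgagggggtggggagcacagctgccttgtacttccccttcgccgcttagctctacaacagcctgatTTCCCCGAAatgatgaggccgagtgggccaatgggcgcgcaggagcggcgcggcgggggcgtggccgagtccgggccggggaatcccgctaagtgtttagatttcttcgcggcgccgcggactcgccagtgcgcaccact

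Trib3, Chac1 and Slc7a11 held the amino acid response element, Slc7a11 on both strands and beside a GAS. Derl3 and Hspa5 held the ERSE, and Derl3 also the UPRE. Gbp2 held the ISRE, Irf1 the GAS, and Igtp the ISRE, the GAS and the UPRE. These matches are descriptions of letters in a window and not shown sites of binding. All 8 windows shown hold a motif, which was not so throughout: Ddit3, Atf4, Xbp1 and Trim66 among genes higher with thapsigargin, and Ifi47, Psmb9, Tap1 and Tlr3 among genes higher with IFN-γ, held none of the 5, nor did a further window of Irf1. The windows of Psmb9 and Tap1 overlap on opposite strands and are largely the same bases.

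The libraries held 32.25 to 40.28 M counted reads at 8 h (median 36.7 M), and 15506 genes were tested. The first principal component held 63.5% of the variance and the second 27.9%, and the 3 treatments separated on them. Nfe2l2, which encodes NRF2, was at 16.9 and 16.8 CPM (read counts scaled to a common library size) in wild-type and 0.596, 0.652 and 0.842 CPM in Nrf2 -/- thapsigargin libraries. With IFN-γ it was at 19.5 and 15.9 CPM in wild-type and 0.209, 0.219 and 0.433 CPM in Nrf2 -/- libraries. Untreated, it was at 5.03 and 9.98 CPM in wild-type and 0.21, 0.178 and 7.69 CPM in Nrf2 -/- libraries, so the untreated library labelled Nrf2 -/- replicate 3 had a level like wild type. In 3 libraries, replicate 2 of each Nrf2 -/- group, title and genotype tag disagree, and the title was followed. Nfe2l2 in these was at 0.652 (thapsigargin), 0.219 (IFN-γ) and 0.178 CPM (untreated). Those levels lie near the other low Nrf2 -/- libraries, as titled, and below every wild-type library. Xist was high in replicates 1 and 2 of every Nrf2 -/- group and low in the other libraries, alike in all 3 treatments. Ribosomal-RNA-like entries took 3.77 to 12.68% of counts with thapsigargin, 2.54 to 17.62% with IFN-γ and 1.88 to 5.49% untreated.

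Between thapsigargin and IFN-γ, 10774 genes (69.5% of those tested) differed at an edgeR adjusted p below 0.05. Of these 5143 (33.2%) were higher with thapsigargin and 5631 (36.3%) lower. With a fold of at least 2 as well, 1668 genes (10.8%) were higher and 2098 (13.5%) lower. The 5 libraries of one treatment did not overlap those of the other for 8697 genes (56.1%). All 5 thapsigargin libraries lay above all 5 IFN-γ libraries for 4122 genes (26.6%), and below them for 4575 (29.5%). No gene's difference was called as depending on genotype (0.00% of genes in edgeR, 0 in DESeq2; 484 genes at an unadjusted p below 0.05 in edgeR). The median SE of that genotype difference was 0.18 on the log2 scale, and differences several times that size may have gone uncalled.

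Among the genes highest with thapsigargin, Trib3, a pseudokinase target of ATF4 and CHOP, had 474, 406, 400, 402 and 378 CPM with thapsigargin (wild type first, then Nrf2 -/-, here and in all such lists), against 2.11, 4.01, 3.27, 2.7 and 2.6 CPM with IFN-γ. Untreated libraries held 0.0795 to 0.5 CPM, so the groups did not overlap and IFN-γ lay between the other 2. The log2 fold of thapsigargin over IFN-γ was 7.11 (SE 0.17, edgeR adjusted p = 3.58e-14), and IFN-γ itself was 3.07 above untreated (adjusted p = 1.93e-07).

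Slc7a11, the cystine importer of glutathione synthesis, had 171, 186, 170, 159 and 151 CPM with thapsigargin, against 0.788, 0.651, 0.471, 0.9 and 0.766 CPM with IFN-γ. No library of either treatment came near the other group, and the log2 fold was 7.87 (SE 0.12, edgeR adjusted p = 1.09e-20). Slc7a11 also rose with IFN-γ, by 2.40 over untreated libraries (adjusted p = 9.85e-08), which held at most 0.237 CPM.

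Chac1, which degrades glutathione, had 211, 176, 189, 196 and 190 CPM with thapsigargin, against 2.22, 2.58, 2.46, 1.7 and 2.26 CPM with IFN-γ, a log2 fold of 6.42 (SE 0.10, edgeR adjusted p = 1.09e-20). Derl3, a channel component of ER-associated degradation, had 70.3, 56.9, 65.1, 66 and 70.4 CPM with thapsigargin, against 0.179, 0.208, 0.262, 0.0973 and 0.333 CPM with IFN-γ. Its IFN-γ libraries did not differ from untreated by the test (log2 fold -0.25, edgeR adjusted p = 0.572), so Derl3 responded to the stress agent alone by the class rule below.

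Nupr1, a stress-induced chromatin protein, differed by 8.65 log2 units, Trim66, a tripartite motif protein, by 8.17, and Pck2, mitochondrial phosphoenolpyruvate carboxykinase, by 6.64 (edgeR adjusted p = 2.63e-18, 6.31e-14 and 8.07e-20). Cass4, a focal adhesion scaffold, had 14.8, 13.6, 16.2, 13.5 and 14.8 CPM with thapsigargin and no count in any IFN-γ library. Taking 3 counts over the 5 IFN-γ libraries in place of 0, it was at least 852-fold higher with thapsigargin.

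On the cytokine side, Gbp2, a guanylate-binding protein of intracellular defence, had 0.138, 0.131, 0.0852, 0.0284 and 0.745 CPM with thapsigargin, against 7238, 7173, 7745, 7013 and 7388 CPM with IFN-γ. The log2 fold was -15.06 (SE 0.46, edgeR adjusted p = 8.69e-12), and -16.15 without Nrf2 -/- thapsigargin replicate 3, the library at 0.745 CPM. Thapsigargin did not differ from untreated by the test (0.37, adjusted p = 0.762), but was called above it once the 3 libraries of conflicting labels were left out (2.64, adjusted p = 0.0247). Only 37 counts over the 5 thapsigargin libraries and 32 over the 5 untreated ones stand behind that comparison.

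Igtp, an immunity-related GTPase, had 0.0553, 0.157, 0.0284, 0 and 0.0647 CPM with thapsigargin, against 1880, 2036, 2027, 1955 and 2037 CPM with IFN-γ. It fell with thapsigargin by 1.91 on the log2 scale against untreated (edgeR adjusted p = 0.0023), which rests on 11 counts over the 5 thapsigargin libraries against 48 over the 5 untreated ones. Tgtp2, of the same family, was lower with thapsigargin by a log2 fold of -14.90 (SE 0.22, edgeR adjusted p = 6.1e-18). That size rests on 7 counts over the thapsigargin libraries, most of them in Nrf2 -/- replicate 3, without which the fold was -16.23.

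For the other leaders the thapsigargin group was at or near 0 and fitted folds carry no meaning. Gbp10 and Tgtp1 had no count in any thapsigargin library and were at least 9720-fold and 10400-fold lower there than with IFN-γ. F830016B08Rik, a predicted immunity-related GTPase, was at least 9220-fold lower. Gbp4 had 1 count over the thapsigargin libraries and 141818 over the IFN-γ libraries, a ratio of 142000 with a 95% Poisson interval of 25500 to 5600000 that covers the counting error of the low group. Gm4951 likewise had 1 count against 126003. Guanylate-binding proteins, immunity-related GTPases and MHC genes have near-identical copies, so the share of each copy within these families is uncertain.

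**Figure D1:**
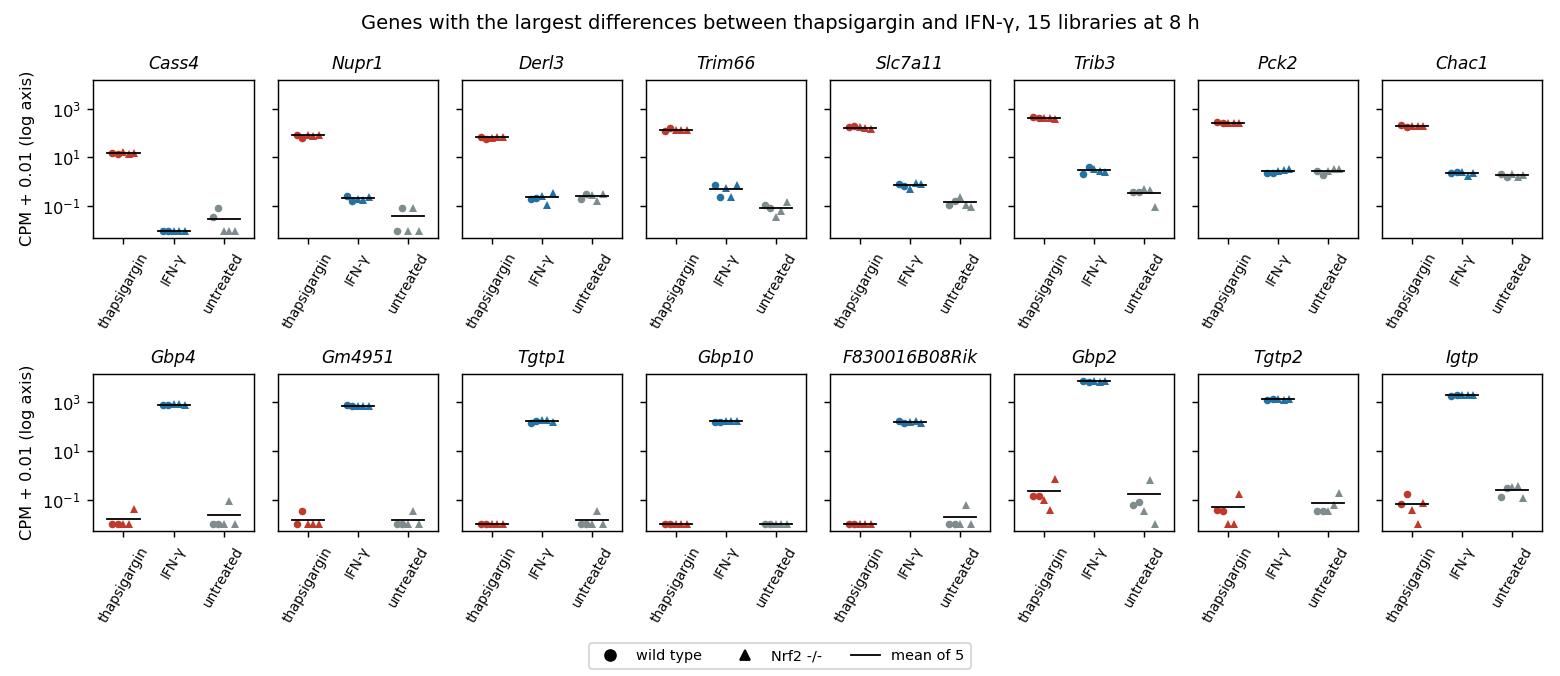
Level of 16 genes in each of the 15 libraries at 8 h, as CPM plus 0.01 on a log axis, for thapsigargin, IFN-γ and untreated cells; circles are wild type, triangles Nrf2 -/-, and bars the mean of 5. The upper 8 genes are high with thapsigargin and the lower 8 with IFN-γ; they were chosen as the largest differences among genes whose libraries do not overlap between those treatments.

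Each gene was then classed by its 3 calls. A gene was stress-specific when it changed with thapsigargin, not with IFN-γ, and also differed between them, cytokine-specific in the mirror case, shared when both moved it the same way and opposite when they moved it in opposite ways. Both comparisons with untreated use the same 5 untreated libraries, so the class sizes are descriptions and the sets are not independent. Against untreated, 10611 genes (68.4%) changed with thapsigargin, 5250 up (33.9%) and 5361 down (34.6%), and 6005 (38.7%) changed with IFN-γ, 3158 up (20.4%) and 2847 down (18.4%). A rise of at least 2-fold with IFN-γ was seen in 1100 genes (7.09%) and a fall of that size in 414 (2.67%).

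Stress-specific genes numbered 2843 up (18.3% of genes tested) and 2426 down (15.6%), and cytokine-specific genes 698 up (4.50%) and 401 down (2.59%). Shared genes numbered 1404 up (9.05%) and 1610 down (10.4%). Opposite genes numbered 730 that were up with thapsigargin and down with IFN-γ (4.71%) and 964 with the reverse pattern (6.22%). With every call also held to a fold of at least 2, the counts in the same order were 1222, 962, 533, 76, 341, 259, 19 and 125. The opposite pattern up with thapsigargin shrank most. Under that rule a change below 2-fold counts as none, so the specific classes gained genes that the other agent moved less. Of the 1222 and 962 stress-specific genes, 889 and 628 were in the same class before. Of the 533 and 76 cytokine-specific genes, 363 and 45 were.

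**Figure D2:**
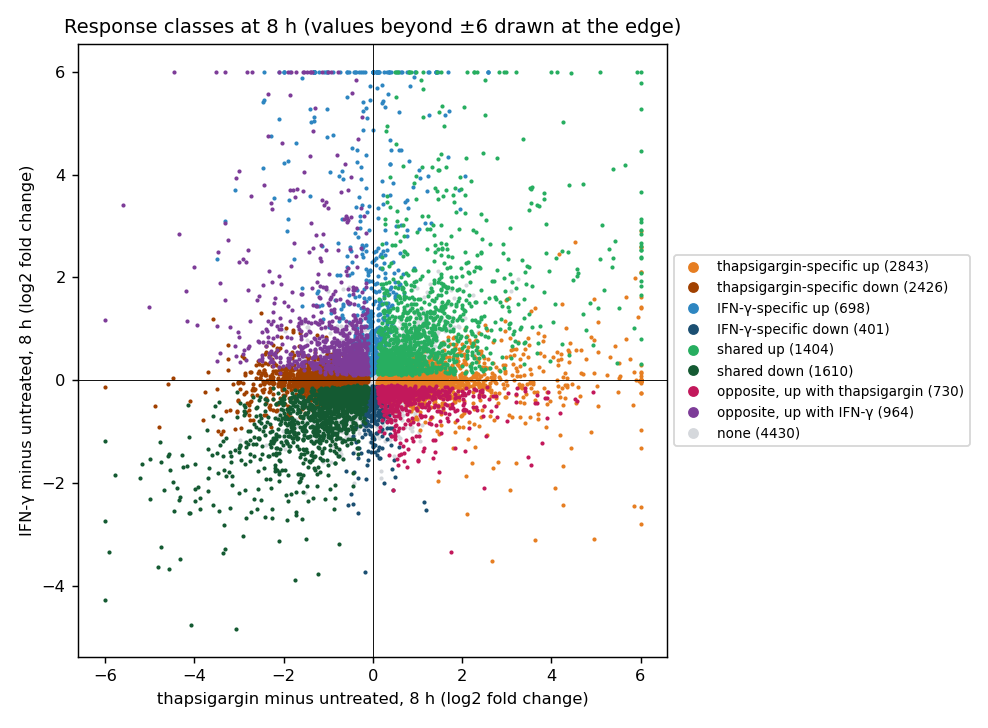
Log2 fold of each of the 15506 genes tested, thapsigargin minus untreated across and IFN-γ minus untreated up, coloured by response class with class sizes in the key; values beyond 6 are drawn at the edge, and both axes share the untreated libraries. Cytokine-specific genes reach the upper edge and, by the rule of their class, were not called across. Some with few counts lie away from 0 across, such as Ifi47 at 1.23 on 5 counts with thapsigargin and 2 untreated. The lower side of the IFN-γ axis holds few genes beyond -2.

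The lists of pathway genes divided by treatment. Beside their counts in the direct comparison, 33.2% of all genes tested were higher with thapsigargin and 36.3% lower. Targets of ATF4 and CHOP were higher with thapsigargin in 19 of 20 tested and lower in 0, with a median log2 fold of 4.09, where all genes had a median of -0.02. Ddit3, which encodes the death-linked factor CHOP, had 468, 393, 439, 472 and 453 CPM with thapsigargin, against 7.85, 9.09, 8.06, 9.2 and 8.86 CPM with IFN-γ. Those groups were far apart (log2 fold 5.69, SE 0.07, edgeR adjusted p = 4.78e-22), and IFN-γ did not differ from untreated by the test (0.16, adjusted p = 0.0672). Fgf21, a stress hormone, had 342 counts with thapsigargin and none with IFN-γ or untreated, which makes it at least 114-fold higher than with IFN-γ. Tnfrsf10b, a death receptor, was the member that did not pass (0.29).

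Of the sensors and regulators of ER stress, 11 of 12 were higher with thapsigargin and 0 lower (median 1.60). Atf4 had 905, 763, 886, 948 and 1005 CPM with thapsigargin, against 195, 191, 177, 185 and 205 CPM with IFN-γ. Xbp1 had 380, 357, 358, 352 and 395 CPM with thapsigargin, against 82, 81.6, 78.8, 74.1 and 82.6 CPM with IFN-γ. Both had separate groups and log2 folds of 2.24 and 2.21 (edgeR adjusted p = 8.4e-17 and 1.34e-18), and both were slightly lower with IFN-γ than untreated, with log2 folds of -0.15 for Atf4 (adjusted p = 0.0491) and -0.33 for Xbp1 (adjusted p = 4.92e-06).

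All 22 ER chaperones and folding enzymes were higher with thapsigargin (median 2.20), and together they took 3.68 to 4.02% of all counts there, against 0.503 to 0.623% with IFN-γ and 0.647 to 0.708% untreated. Hspa5, the master chaperone BiP, had 8672, 7626, 8427, 8895 and 9224 CPM with thapsigargin, against 668, 730, 684, 722 and 685 CPM with IFN-γ. The lowest thapsigargin library was far above the highest IFN-γ library (log2 fold 3.62, SE 0.06, edgeR adjusted p = 6.84e-20). With IFN-γ, Hspa5 was slightly below untreated (log2 fold -0.22, adjusted p = 0.00458). Creld2, a disulfide isomerase relative, differed by 4.89 and Hyou1, an ER nucleotide exchange factor, by 4.21. By class, 12 of the 22 were stress-specific, 9 opposite and 1 shared, where those rising classes held 18.3%, 4.71% and 9.05% of all genes. Falls with IFN-γ among the 22 were small, the deepest being Creld2 at -0.37.

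ER-associated degradation genes were higher with thapsigargin in 19 of 20 and lower in 0 (median 1.42), with Herpud1, an organiser of the degradation complex, at 5.15. Translocation, glycosylation and COPII genes were higher in 23 of 26 and lower in 1 (median 1.55), from Sec24d, a cargo-binding coat protein, at 4.98 to Spcs1, a signal peptidase subunit, at -0.32. Amino acid transporters were higher in 12 of 12 (median 3.21), among them Slc7a3, a cationic amino acid carrier, at 6.28. Enzymes of serine, one-carbon, proline and asparagine synthesis were higher in 13 of 14 and lower in 1, Shmt1 (-1.42), the cytosolic serine hydroxymethyltransferase.

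Cytosolic aminoacyl-tRNA synthetases were higher with thapsigargin in 16 of 20 and lower in 3 (median 1.63). Wars, the tryptophan enzyme, had 402, 347, 377, 381 and 398 CPM with thapsigargin, against 943, 886, 834, 802 and 890 CPM with IFN-γ. Every library of both treatments exceeded the untreated range of 87 to 94.7 CPM, so Wars rose with both and more with IFN-γ (log2 fold -1.19, SE 0.05, edgeR adjusted p = 9.69e-14).

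**Figure D3:**
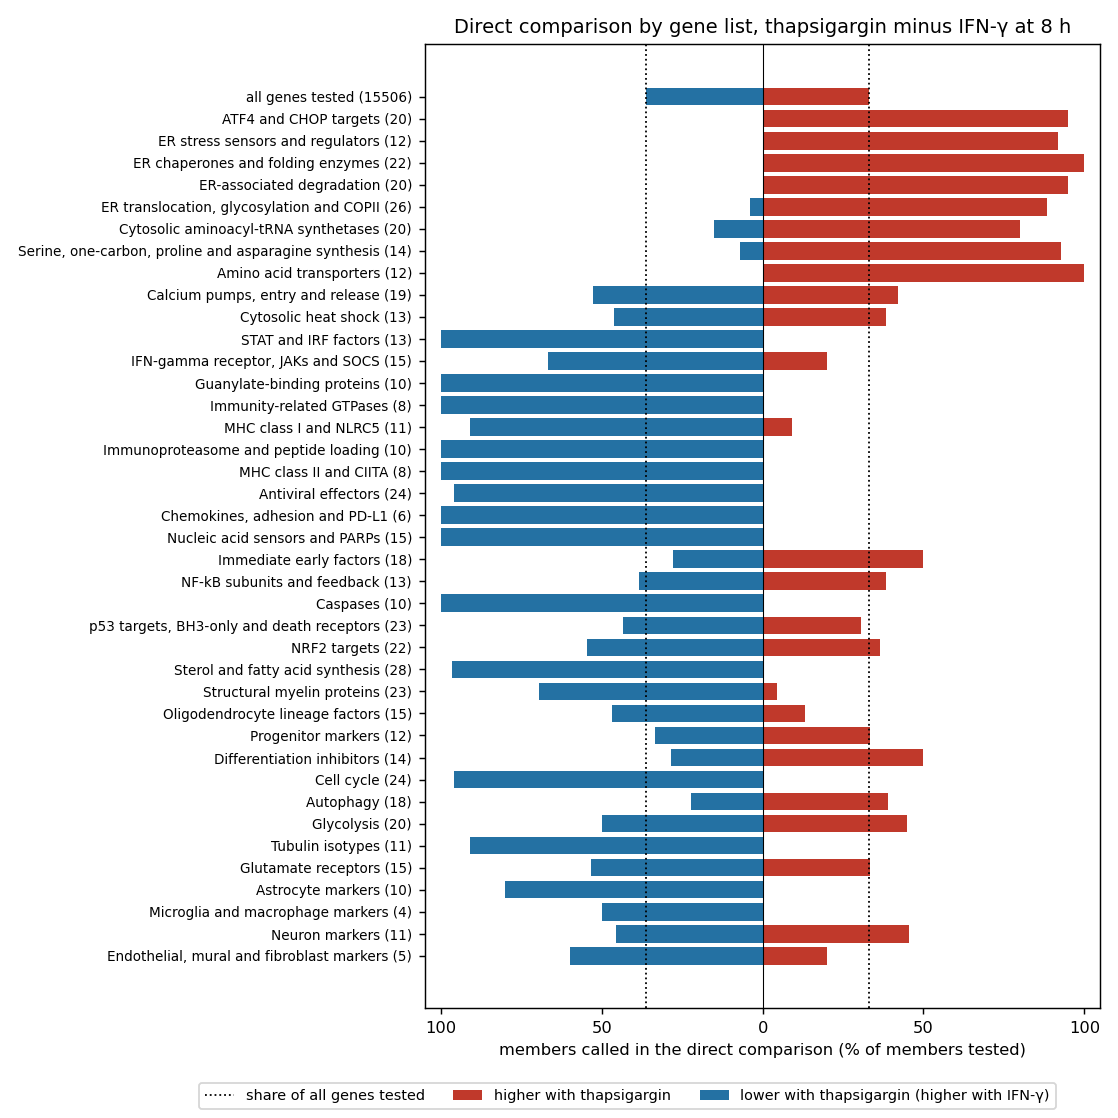
Share of each gene list's tested members (number in brackets) that were higher with thapsigargin, to the right, or lower, to the left, in the direct comparison; dotted lines mark the shares over all genes, 33.2% and 36.3%. ER and amino acid lists extend to the right, interferon, caspase, sterol and cell cycle lists to the left, and immediate early and glycolysis lists to both sides.

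The transcription factors of interferon signalling were lower with thapsigargin in 13 of 13 (median -3.38). Irf1, an activator of antigen presentation genes, had 13.9, 13.3, 12.6, 13.3 and 13.9 CPM with thapsigargin, against 843, 905, 918, 873 and 865 CPM with IFN-γ. The groups did not come near each other (log2 fold -6.04, SE 0.06, edgeR adjusted p = 6.73e-23). Irf1 also fell slightly with thapsigargin against untreated, with a log2 fold of -0.46 (adjusted p = 2.41e-07).

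Of receptor, kinase and feedback genes, 10 of 15 were lower with thapsigargin and 3 higher. Usp18, a brake on interferon signalling, had the largest difference at -7.49, and the higher ones were small, led by Tyk2, a Janus kinase, at 0.34. Guanylate-binding proteins were lower in 10 of 10 and immunity-related GTPases in 8 of 8, with median log2 folds of -12.48 and -14.67; with low-count members at their bound or ratio the medians were -12.34 and -13.99. With IFN-γ, these families took 0.981 to 1.25% and 1.04 to 1.27% of all counts, and with thapsigargin at most 0.000956% and 0.00158%.

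MHC class I genes with their activator Nlrc5 were lower with thapsigargin in 10 of 11 and higher in 1. Nlrc5 had 0.912, 0.787, 1.39, 0.681 and 1.3 CPM with thapsigargin, against 700, 684, 748, 747 and 697 CPM with IFN-γ, with a log2 fold of -9.47 (SE 0.11, edgeR adjusted p = 6.07e-22). Thapsigargin lowered it against untreated as well (-1.54, adjusted p = 2.03e-09). H2-M3, which presents formylated peptides, was the exception, with 4.78, 5.85, 5.45, 4.96 and 6.21 CPM with thapsigargin and 4.41, 4.33, 4.29, 4.33 and 4.36 CPM with IFN-γ. Both treatments lifted H2-M3 above the untreated range of 0.318 to 0.482 CPM, by 3.73 with thapsigargin (adjusted p = 7.47e-15) and 3.40 with IFN-γ (adjusted p = 8.31e-14).

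Immunoproteasome and peptide loading genes were lower in 10 of 10 (median -5.52), led by the protease subunit Psmb8 at -10.72. MHC class II genes were lower in 8 of 8, and their activator Ciita stood at 0 to 0.17 CPM with thapsigargin against 14.4 to 18.6 CPM with IFN-γ. Antiviral effectors were lower in 23 of 24 and higher in 0 (median -6.25, or -6.20 with low-count members at their bound or ratio), among them Ifit1, which binds foreign RNA, at -11.07. Nucleic acid sensors and PARPs were lower in 15 of 15, including Parp14, an ADP-ribosyltransferase, at -11.51. Caspases were lower in 10 of 10 (median -2.93): Casp12, an ER-associated caspase, differed by -10.09 and rose with IFN-γ (8.53, edgeR adjusted p = 2.41e-18), while it fell with thapsigargin (-1.56, adjusted p = 0.0206).

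Among the shared rises, Adamts15, a matrix protease, had 24.2, 28.2, 30.5, 27.4 and 24.9 CPM with thapsigargin and 18.4, 21, 24.1, 23.3 and 19.4 CPM with IFN-γ, against at most 0.291 CPM untreated. The treated groups lay close together but were still told apart (log2 fold 0.35, SE 0.10, edgeR adjusted p = 0.00343). Vgf, a secreted neuropeptide precursor, had 18.6, 19.4, 28.3, 27.7 and 24 CPM with thapsigargin, against 9.71, 7.53, 8.11, 9.25 and 7.39 CPM with IFN-γ and at most 0.685 CPM untreated. Its rise was larger with thapsigargin (1.48, adjusted p = 3.4e-09). Of the 1404 shared rises, thapsigargin was above IFN-γ in 645 (4.16% of genes tested), below in 334 (2.15%) and not told apart in 425 (2.74%).

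Fosl2, an AP-1 subunit, had 19.5, 21.8, 23.9, 21.6 and 22.7 CPM with thapsigargin and 20.3, 16.9, 18.5, 20 and 19.5 CPM with IFN-γ, and those groups overlapped. Its direct difference of 0.20 (SE 0.07, edgeR adjusted p = 0.0113) did not pass in a fit of all 50 libraries (0.23, adjusted p = 0.121). Hcn4, a pacemaker channel, rose by 3.83 with thapsigargin and 3.53 with IFN-γ against untreated. Its difference between treatments (0.30, adjusted p = 0.014) did not pass without the first Nrf2 -/- IFN-γ library (0.25, adjusted p = 0.0522).

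Immediate early factors gave a mixed picture, with 9 of 18 higher with thapsigargin and 5 lower (median 0.22), and 11 of the 18 in the shared rise. Over all genes tested, 33.2% were higher, 36.3% lower and 9.05% in the shared rise. Jun had 66.7, 59.3, 67, 66 and 68.1 CPM with thapsigargin, against 632, 490, 516, 474 and 547 CPM with IFN-γ. It rose with both over the untreated 31 to 36.8 CPM, and far more with IFN-γ (log2 fold of the direct comparison -3.02, SE 0.08, edgeR adjusted p = 3.83e-17). Egr2, a zinc finger factor, was the most skewed to IFN-γ (-5.54), and Klf4, a Krüppel-like factor, to thapsigargin (2.98).

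Among the shared falls, Kif26a, a kinesin relative, had 1.93, 1.81, 2.36, 1.84 and 2.2 CPM with thapsigargin and 2.08, 2.32, 1.88, 2.26 and 1.73 CPM with IFN-γ, against 17.1 to 21.7 CPM untreated. The treated groups overlapped (-0.03, SE 0.12, edgeR adjusted p = 0.854). Bmp4, a growth factor of committed precursors, had log2 folds against untreated of -2.84 with thapsigargin and -2.68 with IFN-γ, and the treated groups were not told apart (-0.16, adjusted p = 0.103). Plekhf1, an endosomal and lysosomal protein, fell further with thapsigargin (-4.75) than with IFN-γ (-3.24; direct -1.51, adjusted p = 4.02e-09). Pnlip, pancreatic lipase by name, had log2 folds against untreated of -2.59 with thapsigargin and -2.51 with IFN-γ. Of the 1610 shared falls, thapsigargin was below IFN-γ in 930 (6.00%), above in 141 (0.909%) and not told apart in 539 (3.48%).

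Structural myelin genes were lower with thapsigargin than with IFN-γ in 16 of 23 and higher in 1, with 16 of the 23 in the shared fall (median of the direct comparison -0.81). Shares over all genes tested were 36.3% lower, 33.2% higher and 10.4% in the shared fall. Mbp, myelin basic protein, had 106, 78.4, 81.5, 73.1 and 77.9 CPM with thapsigargin, against 213, 160, 157, 127 and 178 CPM with IFN-γ and 260 to 359 CPM untreated. Thapsigargin and IFN-γ libraries did not overlap, and the direct log2 fold was -0.998 (SE 0.11, edgeR adjusted p = 1.75e-06). Mal, a raft protein of myelin, went against the list (1.51, adjusted p = 0.000125) at low levels of 0.912 to 0.994 CPM with thapsigargin against 0.195 to 0.466 CPM with IFN-γ.

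**Figure D4:**
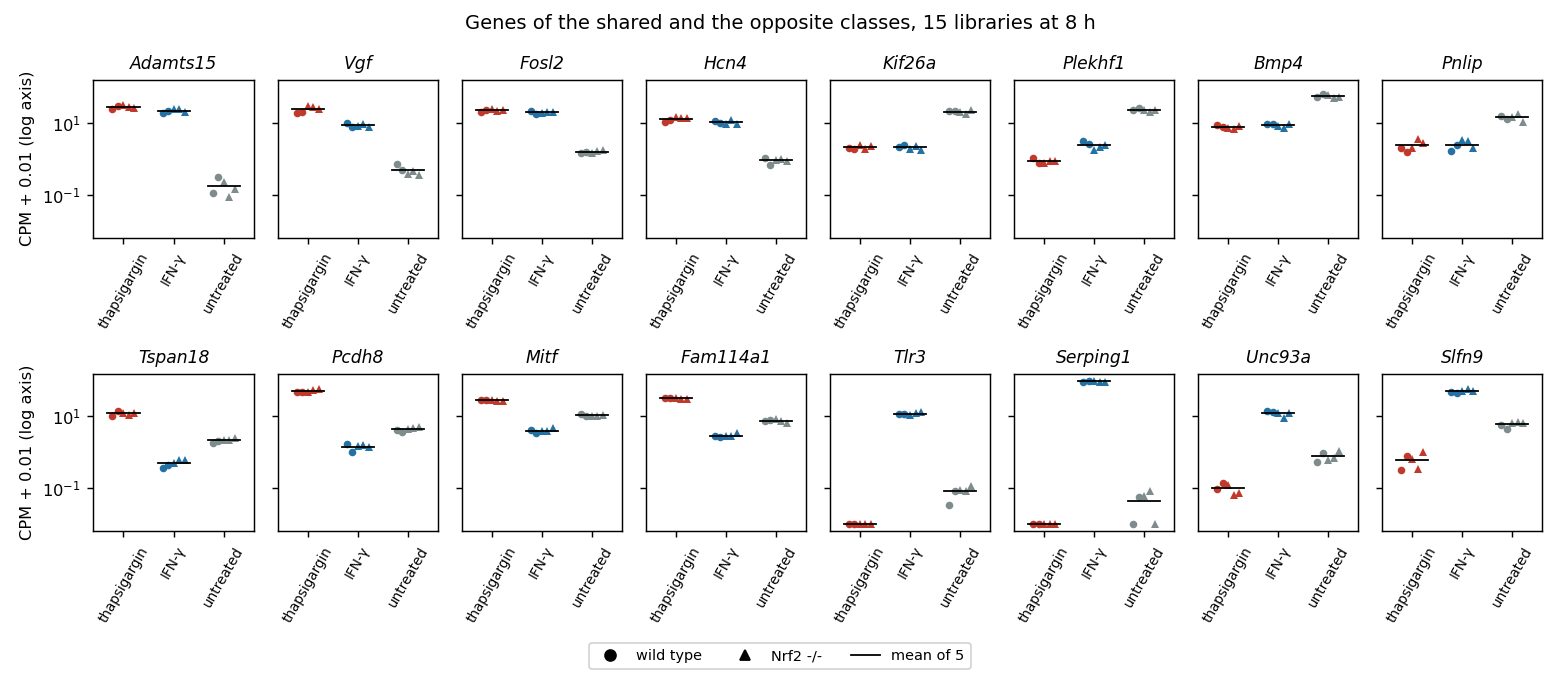
Level of 16 genes of the shared and opposite classes in each of the 15 libraries at 8 h, as CPM plus 0.01 on a log axis; symbols as in the plot of the 16 leading genes. By the rule of their classes, both treatments lie on the same side of untreated in the upper row and on opposite sides in the lower, except that Serping1 had no count in 2 untreated libraries, as in all thapsigargin libraries.

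Among lineage factors, 7 of 15 were lower with thapsigargin and 2 higher; Olig1, a lineage determinant, had 220, 212, 218, 256 and 257 CPM with thapsigargin, against 747, 677, 657, 671 and 772 CPM with IFN-γ. Those groups were separate (log2 fold -1.60, SE 0.07, edgeR adjusted p = 6.36e-14), and the untreated libraries at 581 to 690 CPM lay close to IFN-γ (0.17, adjusted p = 0.0514). Of progenitor markers 4 of 12 were higher and 4 lower, close to the shares over all genes (33.2% and 36.3%), with Neu4, a sialidase, lowest (-2.15). Inhibitors of differentiation were higher with thapsigargin in 7 of 14 and lower in 4 (median 0.43), from Hey2, a Notch effector (2.97), to Sox11, a factor of immature cells (-0.99).

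Opposite responses past a fold of 2 in each direction were few on the thapsigargin side. Pcdh8, an activity-regulated protocadherin, had 47.8, 47.6, 48.1, 55.2 and 58.7 CPM with thapsigargin, against 1.65, 1.04, 1.49, 1.56 and 1.4 CPM with IFN-γ. Untreated libraries at 3.68 to 5.12 CPM lay between the treated groups, and Pcdh8 rose by 3.54 with thapsigargin (edgeR adjusted p = 1.23e-17) and fell by 1.64 with IFN-γ (adjusted p = 9.68e-11). Mitf, a lysosome and pigment cell factor, rose by 1.40 and fell by 1.40 (direct 2.80, SE 0.08, adjusted p = 7.53e-17). Tspan18, a tetraspanin, and Fam114a1 behaved alike, with direct folds of 4.59 and 3.45.

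In the reverse pattern, Slfn9, a Schlafen protein, had 0.304, 0.787, 0.625, 0.34 and 1 CPM with thapsigargin, against 46.8, 45, 50.7, 57.8 and 51.2 CPM with IFN-γ. Untreated libraries at 4.43 to 6.98 CPM again lay between, so Slfn9 fell by 3.31 with thapsigargin and rose by 3.06 with IFN-γ (edgeR adjusted p = 5.34e-11 and 3e-12). Unc93a fell by 3.06 and rose by 3.94. Serping1, the C1 inhibitor of complement, and Tlr3, a sensor of double-stranded RNA, had no count with thapsigargin and only 7 and 14 counts over the untreated libraries. Both left this class when the deposited isoform table was used, and Serping1 also in the fit of all 50 libraries.

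Cell cycle genes were lower with thapsigargin in 23 of 24 and higher in 0 (median -1.79). Mcm3, a replicative helicase subunit, had 2.4, 2.86, 3.95, 3.49 and 3.59 CPM with thapsigargin, against 53, 65, 70.3, 64.4 and 54.5 CPM with IFN-γ and 25.1 to 33.7 CPM untreated. It fell by 3.20 with thapsigargin and rose by 1.04 with IFN-γ (edgeR adjusted p = 8.39e-14 and 1.02e-07), and 10 of the 24 genes were opposite in this sense. That class held 6.22% of all genes tested. Esco2, which acetylates cohesin in S phase, fell with thapsigargin alone (-3.13, adjusted p = 4.71e-16), as did the histone gene Hist1h3g (-2.58, adjusted p = 2.44e-08) and Lypd1, a nicotinic receptor modulator (-2.69, adjusted p = 4.46e-15). Without Nrf2 -/- IFN-γ replicate 2, Hist1h3g also rose with IFN-γ (0.48, edgeR adjusted p = 0.0373). Without Nrf2 -/- IFN-γ replicate 3, Lypd1 also fell with it (-0.23, edgeR adjusted p = 0.0325).

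Sterol and fatty acid synthesis genes were lower with thapsigargin in 27 of 28 and higher in 0 (median -0.91), and 22 of the 28 fell with both agents. Over all genes tested, 36.3% were lower and 10.4% were in the shared fall. Nsdhl, a sterol dehydrogenase, had 24.1, 21.5, 32, 30.2 and 36.6 CPM with thapsigargin, against 144, 125, 123, 153 and 160 CPM with IFN-γ. The groups were separate (-2.31, SE 0.13, edgeR adjusted p = 6.22e-10), and the fall with IFN-γ did not pass (-0.28, adjusted p = 0.0801). That fall did pass without wild-type IFN-γ replicate 1 (-0.35, edgeR adjusted p = 0.0482) and without Nrf2 -/- untreated replicate 1 (-0.35, adjusted p = 0.0174). Hsd17b7, of the same pathway, had the largest difference (-2.68). Tubulin isotypes were lower in 10 of 11, with Tuba1a at -2.22.

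Among the genes that fell with IFN-γ alone, Elfn2, a synaptic adhesion protein, had 91, 90.5, 108, 102 and 101 CPM with thapsigargin, against 37.4, 34.8, 33.1, 35.4 and 38.9 CPM with IFN-γ and 83.2 to 116 CPM untreated. Thapsigargin and untreated libraries overlapped, and the direct fold was 1.46 (SE 0.08, edgeR adjusted p = 2.05e-12). Tmtc1, an ER mannosyltransferase, Gpr149, an orphan receptor, and Prickle1, a planar polarity protein, fell with IFN-γ, with log2 folds against untreated of -1.91, -1.51 and -1.29.

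Death-related genes of the p53, BH3-only and death receptor list were higher in 7 of 23 and lower in 10 (median -0.03). Over all genes tested, 33.2% were higher and 36.3% lower (median -0.02), so the list as a whole lay near all genes. Hrk, a BH3-only killer protein, had 38, 33.1, 42, 39.6 and 40.8 CPM with thapsigargin, against 0.717, 0.703, 0.811, 0.803 and 0.799 CPM with IFN-γ and at most 0.363 CPM untreated. Fas, the death receptor, showed the reverse, with 0.304, 0.315, 0.369, 0.227 and 0.227 CPM with thapsigargin, against 9.17, 10.4, 11.9, 11.1 and 10.6 CPM with IFN-γ. Neither gene's groups overlapped (log2 folds 5.65 and -5.18, edgeR adjusted p = 4.74e-17 and 4.56e-17).

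Calcium handling genes were higher in 8 of 19 and lower in 10. Atp2a2, the SERCA2 pump that thapsigargin inhibits, had 757, 1087, 850, 1007 and 1208 CPM with thapsigargin, against 249, 198, 180, 302 and 243 CPM with IFN-γ (log2 fold 2.06, SE 0.22, edgeR adjusted p = 2.63e-06). Atp2a3, the SERCA3 pump, had 273 counts with thapsigargin and none with IFN-γ, at least 91-fold higher. Slc8a1, a sodium-calcium exchanger, was lowest (-1.10). Cytosolic heat shock genes were higher in 5 of 13 and lower in 6, with Hspa8 at -1.39. Beside both lists, 33.2% of all genes tested were higher and 36.3% lower.

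In 5 of the remaining lists both directions occurred, as they did over all genes tested, with 33.2% higher and 36.3% lower. NRF2 targets were higher in 8 of 22 and lower in 12, led by Slc7a11 and, at the other end, Prdx1, a peroxiredoxin (-0.88). Most libraries pooled here were Nrf2 -/-, and Slc7a11 was high with thapsigargin in both genotypes. Glycolysis and hypoxia-type genes were higher in 9 of 20 and lower in 10, from the angiogenic factor Vegfa (4.64) to Aldoc (-2.58). NF-κB subunits and feedback genes were higher in 5 of 13 and lower in 5, near those shares, with the inhibitor Tnfaip3 at -4.53. Autophagy genes were higher in 7 of 18 and lower in 4, from Sqstm1, a cargo receptor (1.16), to Tfeb (-0.86). Glutamate receptor genes were higher in 5 of 15 and lower in 8, from Shisa9 (2.13) to Cacng5 (-2.31), both auxiliary subunits. In the sixth, chemokine, adhesion and PD-L1 genes were lower in 6 of 6 tested, out of 14 listed. Cxcl9, Cxcl11 and Ccl2 were among those with too few counts to test. Against untreated, 5 of the 6 rose with IFN-γ and 1 fell, beside 20.4% and 18.4% of all genes tested. Ccl5 had only 15 counts with IFN-γ and 1 with thapsigargin, against 66 untreated. Cx3cl1 libraries overlapped between thapsigargin and IFN-γ.

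The summed levels of markers of other cell types differed by treatment, except that microglia sums overlapped between IFN-γ and untreated. Astrocyte markers summed to 172 to 194 CPM with thapsigargin, 439 to 531 CPM with IFN-γ and 549 to 617 CPM untreated. Neuron markers summed to 926 to 1130 CPM with thapsigargin, 1460 to 1700 CPM with IFN-γ and 1720 to 1800 CPM untreated. Microglia markers summed to 11.9 to 14.3 CPM, 21 to 28 CPM and 20.3 to 25 CPM in the same order, and 8 of 15 had no count in each treatment. Endothelial, mural and fibroblast markers summed to 2.22 to 3.33 CPM with thapsigargin, 8.06 to 11.5 CPM with IFN-γ and 1.52 to 1.92 CPM untreated, and Acta2, smooth muscle actin, alone had 5.06 to 6.03 CPM with IFN-γ. Single markers did not all follow these sums; over all genes, 33.9% rose and 34.6% fell with thapsigargin, and 20.4% rose and 18.4% fell with IFN-γ. Of 10 astrocyte markers tested against untreated, 2 rose and 7 fell with thapsigargin, and 5 rose and 2 fell with IFN-γ. Of 11 neuron markers, 8 rose and 2 fell with thapsigargin, and 7 rose and 2 fell with IFN-γ, while Map2, which carries most of the neuron sum, averaged 831 CPM with thapsigargin, 1171 CPM with IFN-γ and 1536 CPM untreated. The part of these cells in the differences was not tested.

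The promoter windows of the classes, taken at a fold of at least 2, were searched for the same 5 motifs. At this fold the specific classes include genes that the other agent moved by less than 2-fold. A window was found for 11009 of the 15506 genes tested. The ISRE was held by 16.6% of windows of cytokine-specific risers and 13.8% of those opposite and up with IFN-γ, against 2.70% of stress-specific risers and 2.97% of all genes tested (3.44% of all windows in the table). The GAS was held by 12.7% of cytokine-specific risers, 6.48% of stress-specific risers and 6.74% of all genes tested (8.30% of the table). The ERSE was held by 1.17% of stress-specific risers, 0% of cytokine-specific risers and 0.135% of all genes tested (0.119% of the table). The UPRE was held by 17.6%, 8.82% and 10.8% of those windows in the same order (8.31% of the table). The amino acid response element was held by 4.14%, 3.23% and 2.25% in that order (3.97% of the table), and by 6.73% of shared risers, which at this fold hold Trib3 and Slc7a11 but not Chac1.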

How the data were processed

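Read counts per gene, in a table deposited by the authors, are whole numbers and were used as deposited; per the submitters' processing notes STAR, featureCounts, kallisto and edgeR were used. The second deposited table holds estimated counts per transcript, which were rounded after summing per gene and served for 1 alternative only. For tool versions, genome build, annotation and strand the entry is "not given in the sources used here", so reads of antisense partners cannot be told apart. Of 39056 entries, 38872 matched GENCODE M21 (GRCm38) for symbols. Groups come from the sample titles.

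The 15 libraries at 8 h were filtered with filterByExpr, scaled by TMM and fitted in edgeR 4.0.16 (R 4.3.3; quasi-likelihood, robust) with treatment and genotype as terms. Genes were called at a Benjamini-Hochberg adjusted p below 0.05 over all 15506 genes. The test was of a difference in mean level, judged against the spread between libraries. CPM of single genes use TMM-scaled library sizes and depend on gene length, so levels of different genes are not compared. The summed CPM of cell type markers use total counts per library without TMM scaling. Folds against a group without counts use 3 counts over the group. The genotype difference was fitted with 6 group means. The procedure was tested on simulated data in which every gene had the same dispersion (spread between libraries), the fitted common value of 0.0105. That value replaced a larger one, at which a first run missed its own threshold. Most planted genotype differences below 2-fold were not recovered.

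Members, gene lists and motifs were chosen with earlier results of these data known. Named genes are the 8 with the largest direct difference in each direction (protein-coding, libraries not overlapping, at least 10 CPM in the higher group), the 4 leading each response class, 11 fixed genes (2 of them not reported here), and the called list members with the largest folds. Tnfrsf10b, H2-M3 and the printed promoters were singled out after their values were seen. Alternatives were other normalizations, DESeq2 1.42.0, no filter, other sample sets, genotype terms, the isoform table, a fold minimum and leaving out each library.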

Additional observations from a re-analysis of the deposited data

Results flagged for a closer look

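Within the 5 libraries of a treatment, 118 sets of values of the named genes were screened for a library standing apart from the others, and 4 were found; chance gives about 1 in 20 such sets. Jun was lowest in wild-type thapsigargin replicate 2, at 59.3 CPM, where the other 4 thapsigargin libraries held 66 to 68.1 CPM. Mbp was highest in wild-type thapsigargin replicate 1, at 106 CPM, against 73.1 to 81.5 CPM in the other thapsigargin libraries. Prickle1 was lowest in Nrf2 -/- IFN-γ replicate 2, at 8.37 CPM, against 11.5 to 12.3 CPM. Fam114a1 was highest in Nrf2 -/- IFN-γ replicate 3, at 3.36 CPM, against 2.66 to 2.85 CPM.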

How the results depend on the processing

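The labels give no replicate numbers and state no pairing, but library numbers in the titles run in 5 sets of 3, each with the 3 treatments of 1 titled genotype. Deviations from the group means correlated across genes at 0.042 to 0.277 within the 3 Nrf2 -/- sets. Between Nrf2 -/- libraries of different sets and treatments they correlated at -0.235 to 0.068. Within both wild-type sets the range was -0.073 to 0.009. With 2 libraries per wild-type group the deviations mirror each other, so those sets give the same values. In each Nrf2 -/- group of 3 the deviations sum to 0, so correlations between sets are not independent of those within. The main fit had no term for the sets, and the correlations do not settle whether they are pairs. With the sets as a replicate block, 10792 genes were called between thapsigargin and IFN-γ (10643 of them also without the block) and 0 for the genotype difference. Requiring a fold of at least 2 left 3766 genes between thapsigargin and IFN-γ (1668 higher, 2098 lower), 3537 between thapsigargin and untreated (1851, 1686) and 1514 between IFN-γ and untreated (1100, 414). The classes then held 1222 and 962 stress-specific (up, down), 76 cytokine-specific down, 341 and 259 shared (up, down), 19 opposite up with thapsigargin and 125 opposite up with IFN-γ genes. The 533 genes cytokine-specific up, and all these counts under every other alternative run, stayed within 1.5 times of those reported. Differences not called in the report changed sign at sizes near 0: Kif26a was 0.008 without the untreated libraries, 0.045 without the 3 libraries of conflicting labels and -0.097 to 0.028 over fits that each left out 1 library; over those fits Pnlip was -0.26 to 0.005 and Nfe2l2 -0.004 to 0.535. Bmp4 passed the threshold in 3 settings, at -0.195 to -0.221. Of 32 genes named for a class, 30 to 32 kept it in each setting; Cth and Lypd1 left theirs without Nrf2 -/- IFN-γ replicate 3, Lypd1 also without the 2 IFN-γ libraries richest in rRNA-like entries, Hist1h3g without Nrf2 -/- IFN-γ replicate 2, Gbp2 without the 3 libraries of conflicting labels, and Serping1 and Tlr3 as reported. Nsdhl left with upper-quartile factors, DESeq2, the Xist term, the block, without those 2 libraries, and without wild-type IFN-γ replicate 1 or Nrf2 -/- untreated replicate 1. A term for high Xist, the block, leaving out rRNA-like entries and leaving out the 2 IFN-γ libraries richest in them were added after seeing the data.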
